A study of Homo sapiens with 9 samples.

Results

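The 40 genes described here encode proteins of the mitotic spindle, the kinetochore, condensin and the machinery that ends mitosis. They were chosen by name and role, with earlier results of these data known, no measured value enters the rule, and all 40 were found among the 60675 genes of the count files through their Ensembl identifiers. RNA-seq was available from 9 libraries of LNCaP:C4-2, a line of prostate cancer cells derived from LNCaP that grows under castrate conditions, in 3 groups of 3 libraries. All of the cells, the control included, carried a doxycycline-inducible shRNA construct delivered by lentivirus, had been selected with puromycin for stable integration, were grown in phenol red-free medium with charcoal-stripped serum, and received doxycycline at 1 μg/ml for 6 days according to the treatment protocol. The sample titles also name a vehicle, and in the paper ethanol is the vehicle control of its androgen experiments. The shScramble control carried an shRNA that targets no gene, and the other groups carried shMETTL3 guide 2 or shMETTL3 guide 1, directed against the m6A RNA methyltransferase METTL3. Nothing in the labels says that the 3 libraries of a group came from separate cultures, so p-values measure the spread between these libraries, which may be technical. The guide 2 and guide 1 comparisons share the shScramble libraries. The paper describes stable clones selected after delivery of a construct. Each group thus had its own selected cells, and an effect of the shRNA cannot be told apart from a difference between selected cells.

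In mitosis, condensin and topoisomerase II compact the replicated chromosomes, kinetochores built on centromeric chromatin attach them to spindle microtubules, and the spindle assembly checkpoint holds back the anaphase-promoting complex until every chromosome is attached. The chromosomal passenger complex corrects faulty attachments and then moves to the central spindle, where the contractile ring is positioned. Most of these genes are transcribed late in the cell cycle, through promoters that often carry a cell cycle genes homology region (CHR), read by MuvB-containing complexes, and CCAAT boxes, read by NF-Y.

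The promoter letters were examined first, because these genes are known as a co-transcribed set. RefSeq promoters of GRCh38.p14, from 250 bases before to 50 bases after the start of each gene, were matched by symbol for 33 of the 40 genes. The motifs searched, each on either strand, were TTTGAA and TTCGAA, the CHR letters and a variant of them, CCAAT, and the E2F letters TTTCCCGC and TTTGGCGC. TTTGAA was held by 25 of the 33 promoters (75.8%), against 15.4% of all 27305 promoters of the same length. Between 100 bases before and 50 bases after the start it was held by 23 of 33 (69.7%), against 6.91% of all. CCAAT was held by 24 of 33 (72.7%), against 35.7% of all, and TTCGAA by 2 of 33 (6.06%), against 1.45% of all. TTTCCCGC and TTTGGCGC were each held by 1 of 33 (3.03%), against 1.66% and 0.659% of all promoters. The sequences of MAD2L1, BUB1B, INCENP and ECT2 follow, from 100 bases before to 50 bases after the start and 5′ to 3′ along the gene, because among genes with TTTGAA in this window these had the largest changes with guide 2. Capitals mark TTTGAA and CCAAT or its reverse complement ATTGG.
MAD2L1 (chr4:120066799-120066948, minus strand): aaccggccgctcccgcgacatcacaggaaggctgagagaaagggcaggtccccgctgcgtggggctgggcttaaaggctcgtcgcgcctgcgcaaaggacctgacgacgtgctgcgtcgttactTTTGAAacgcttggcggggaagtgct
BUB1B (chr15:40160969-40161118, plus strand): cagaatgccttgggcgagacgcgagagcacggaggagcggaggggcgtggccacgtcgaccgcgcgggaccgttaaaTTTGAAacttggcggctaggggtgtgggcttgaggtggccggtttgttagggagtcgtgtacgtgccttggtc
INCENP (chr11:62123911-62124060, plus strand): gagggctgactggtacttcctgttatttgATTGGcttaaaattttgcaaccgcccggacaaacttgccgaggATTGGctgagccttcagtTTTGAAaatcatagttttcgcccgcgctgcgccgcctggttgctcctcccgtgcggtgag
ECT2 (chr3:172750626-172750775, plus strand): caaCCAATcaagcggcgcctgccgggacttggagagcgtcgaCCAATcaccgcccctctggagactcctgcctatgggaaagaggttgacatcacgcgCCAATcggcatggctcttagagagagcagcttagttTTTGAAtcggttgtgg
The first base of TTTGAA lay 23 bases before the start in BUB1B and 10 bases before it in INCENP, and 25 bases after it in MAD2L1 and 35 bases after it in ECT2. INCENP and ECT2 carried CCAAT letters in this window, whereas MAD2L1 and BUB1B carried none there.

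METTL3 itself was measured at 29.8, 31.7 and 33.0 CPM in the shScramble libraries, 16.6, 16.5 and 15.8 CPM with guide 2, and 29.4, 30.1 and 29.6 CPM in the libraries labelled guide 1. CPM are counts scaled to a common library size, here the sizes corrected by edgeR's TMM factors. METTL3 was thus lower with guide 2 (log2 fold change −0.95, SE 0.0689) and not lower, beyond its spread, in the libraries labelled guide 1 (−0.08), and directions drawn from the latter concern libraries with that label. MKI67, a proliferation marker, changed by 0.03 on the log2 scale with guide 2 and by 0.53 in the libraries labelled guide 1, which did not reach 1.5-fold. Libraries held between 21899501 and 30897639 counts. The share of counts on mitochondrial genes was 5.96 to 6.34% with shScramble, 3.78 to 4.92% with guide 2 and 5.08 to 5.30% in the libraries labelled guide 1. Of 7 markers of luminal prostate cells, 2 rose with guide 2 (28.6%, against 8.85% of all genes tested). The 7 were mixed there, with 4 changes above 0 and 3 below. Their median log2 fold change was 0.10, in a range of −0.36 to 0.78. In the libraries labelled guide 1, 4 fell (57.1%, against 16.5%) and all 7 were below 0. The summed level of the 7 was 1048 to 1075 CPM there, against 2082 to 2105 CPM with shScramble and 2250 to 2394 CPM with guide 2. The 6 markers of other cell types summed to 41.7 to 45.6, 33.6 to 36.7 and 18.7 to 24.6 CPM in shScramble, guide 2 and guide 1 libraries. Nearly all of this was COL1A1, while DCN and PECAM1 were at 0 in every library. The part of these shifts in the results below was not tested.

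The mitotic genes were mostly higher in both shRNA groups than with shScramble, with named exceptions. The genes with the largest changes were not the same in each comparison. With guide 2, 9 of the 40 genes rose (22.5%) and 0 fell, where 8.85% of the 19278 genes tested rose and 20.4% fell. In the libraries labelled guide 1, 21 of 40 rose (52.5%) and 0 fell, where 21.2% of all genes tested rose and 16.5% fell. A gene is said to have risen or fallen where the Benjamini-Hochberg adjusted p of edgeR's quasi-likelihood test was under 0.05 over all genes tested and the change was at least 1.5-fold. With the adjusted p alone, without the limit of 1.5-fold, 34 were higher and 1 lower with guide 2, against 30% and 31.7% of all genes, and 35 were higher and 3 lower with guide 1, against 35.4% and 33% of all genes. Unadjusted p-values under 0.05 gave the same 4 numbers of members, against 31.7% higher and 33.8% lower of all genes with guide 2 and 36.2% and 34.4% with guide 1, and DESeq2 with the limit of 1.5-fold also called 0 of the 40 genes lower in either comparison. The median log2 fold change of the 40 genes was 0.34 with guide 2 and 0.60 with guide 1, against −0.04 and −0.02 over all genes tested. With library size alone as the scaling, 6 and 20 of the 40 genes rose and 0 fell, and their median with guide 2 was 0.19, while the median over all genes with guide 2 moved from −0.04 to −0.19 and the share that rose among all called genes from 30.2% to 17.2%. All 40 genes passed the filter on low counts, with counts between 250 (SPC25) and 12015 (TOP2A), so none was lost to it. The summed level of the 40 genes was 2974, 2728 and 2887 CPM in the shScramble libraries, 3639, 3813 and 3727 CPM with guide 2 and 4265, 4307 and 4374 CPM in the libraries labelled guide 1, and the groups did not overlap. Every guide 2 library lay above every shScramble library for 34 of 40 genes, against 32.5% of all genes, and below for 1, CENPF, against 34.1%. In the libraries labelled guide 1 the counts were 34 above, against 36.5% of all genes, and 2 below, CENPA and PTTG1, against 34.5%. In bulk RNA a larger share of cells in mitosis and more RNA of these genes per cell cannot be told apart.

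**Figure D1:**
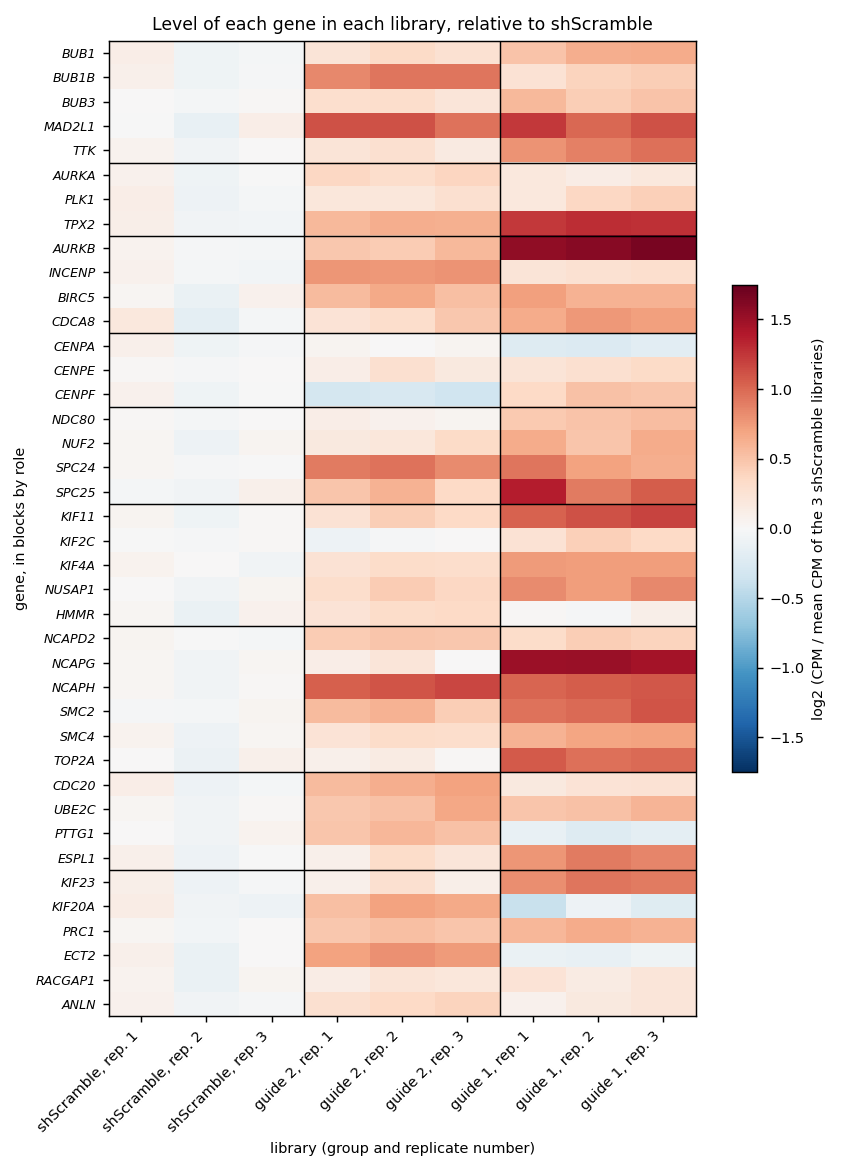
Level of each of the 40 genes (rows, in blocks by role) in each of the 9 libraries (columns), as log2 of its CPM over the mean CPM of the 3 shScramble libraries; red is higher and blue is lower. The guide 2 columns are darkest at NCAPH, MAD2L1, BUB1B and SPC24, the guide 1 columns at AURKB, NCAPG and TPX2, and CENPF is blue with guide 2.

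Of the 40 genes, 4 passed the call in both comparisons (MAD2L1, SPC24, NCAPH and TPX2), 5 with guide 2 and not with guide 1 (BUB1B, INCENP, CDC20, KIF20A and ECT2), 17 with guide 1 and not with guide 2, and 14 in neither. In the direct comparison of the guides, only 2 of these 5 (ECT2 and KIF20A) and 8 of these 17 passed the call as different. For the other 3 and 9, passing in 1 comparison and not in the other does not show that the guides differed by 1.5-fold. Since the comparisons share their control libraries, these counts are not independent of each other. The same joint counts were not made over all genes tested, so they describe the 40 genes only. In the direct comparison 19.1% of all genes tested were called higher and 28.2% lower with guide 2. Genes with TTTGAA near the start were 5 of the 8 that rose with guide 2 and had a matched promoter, and 18 of the 25 that did not. In the libraries labelled guide 1 the letters were near the start of 13 of 18 genes that rose and of 10 of 15 that did not.

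**Figure D2:**
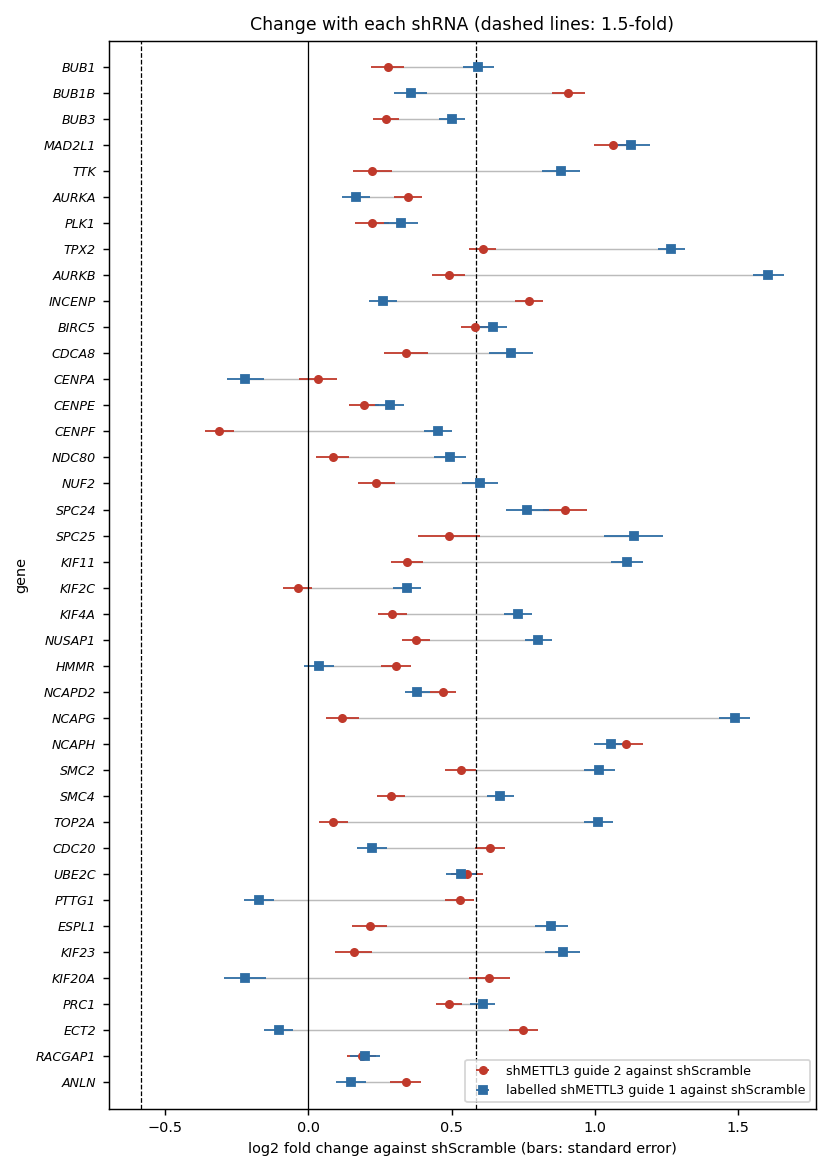
Log2 fold change of each gene against shScramble (horizontal axis) with guide 2 (red circles) and in the libraries labelled guide 1 (blue squares); bars are standard errors, a grey line joins the values of a gene, and dashed lines mark 1.5-fold. Most points lie right of 0. Left of 0 lie CENPF (−0.31) and KIF2C (−0.04) with guide 2, and CENPA, PTTG1, KIF20A and ECT2 in the guide 1 comparison.

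Of the 5 spindle assembly checkpoint genes, 2 rose with guide 2 and 3 in the libraries labelled guide 1. These shares were 40% and 60%, against 8.85% and 21.2% of all genes tested. MAD2L1, which encodes the MAD2 protein that binds and inhibits CDC20, was at 38.1, 35.1 and 41.6 CPM with shScramble, 82.7, 82.6 and 74.2 CPM with guide 2, and 90.1, 76.9 and 83.2 CPM in the libraries labelled guide 1. It was thus 2.09-fold higher with guide 2 (log2 fold change 1.06, SE 0.0659, Benjamini-Hochberg adjusted p = 1.34e-12 by edgeR's quasi-likelihood test) and 2.18-fold higher in the libraries labelled guide 1. Its libraries did not overlap those of the control in either comparison. BUB1B encodes BUBR1, the checkpoint protein that acts beside MAD2 in the mitotic checkpoint complex. It was at 45.8, 41.1 and 42.4 CPM with shScramble, 77.5, 82.8 and 82.4 CPM with guide 2, and 51.4, 56.3 and 58.0 CPM in the libraries labelled guide 1. BUB1B rose with guide 2 (log2 fold change 0.91, SE 0.0566) and stayed under 1.5-fold in the libraries labelled guide 1 (0.36, SE 0.0570), although these too lay above all controls. TTK, the kinase MPS1 that starts checkpoint signalling, had log2 fold changes of 0.22 with guide 2 and 0.88 with guide 1, and the checkpoint kinase BUB1 of 0.28 and 0.59, so that both rose in the libraries labelled guide 1 and not with guide 2. The call on BUB1 was lost with library size alone as the scaling (0.58) and without shScramble replicate 2 (0.55), shScramble replicate 3 (0.57), guide 1 replicate 2 (0.57) or guide 1 replicate 3 (0.57). BUB3, the adaptor that brings BUB1 and BUBR1 to kinetochores, passed the call in neither (0.27 and 0.50).

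Of the kinases of spindle pole and mitotic entry and their activator, only TPX2 rose, and it rose in both comparisons. It made up 33.3% of these 3 genes, against 8.85% of all genes tested with guide 2 and 21.2% with guide 1. TPX2 activates Aurora A on spindle microtubules. It was at 95.3, 84.8 and 85.5 CPM with shScramble, 131, 138 and 136 CPM with guide 2, and 210, 216 and 214 CPM in the libraries labelled guide 1. The 3 groups were fully separated, with log2 fold changes of 0.61 (SE 0.0487) with guide 2 and 1.27 (SE 0.0483) with guide 1. The call with guide 2 stood close to 1.5-fold and was lost when shScramble replicate 2 (0.58) or shScramble replicate 3 (0.58) was left out, and with library size alone (0.46) or a mean of at least 1 CPM (0.56). AURKA, which encodes Aurora A itself, had log2 fold changes of 0.35 and 0.17, and PLK1, the polo-like kinase of mitotic entry and spindle assembly, of 0.22 and 0.32. Of the exon bases of PLK1, 11.6% are shared with an antisense gene that had 5 counts at most in a library.

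The 4 genes of the chromosomal passenger complex moved unequally, and its kinase and its scaffold led in different comparisons. INCENP, the scaffold, was at 65.7, 61.2 and 60.4 CPM with shScramble, 106, 106 and 107 CPM with guide 2, and 72.7, 74.8 and 76.8 CPM in the libraries labelled guide 1. It rose with guide 2 (log2 fold change 0.77, SE 0.0481), and was 0.26 (SE 0.0483) higher on the log2 scale, without reaching 1.5-fold, in the libraries labelled guide 1. AURKB, which encodes the Aurora B kinase of the complex, showed the opposite order. Its level was 28.7, 27.2 and 27.0 CPM with shScramble, 38.3, 37.5 and 40.8 CPM with guide 2, and 81.3, 83.6 and 87.6 CPM in the libraries labelled guide 1. The libraries labelled guide 1 were 3.04-fold above shScramble (log2 fold change 1.61, SE 0.0554, Benjamini-Hochberg adjusted p = 7.62e-20 by edgeR's quasi-likelihood test), the largest change among the 40 genes in that comparison, while guide 2 was 1.40-fold above it. BIRC5, the survivin subunit, had log2 fold changes of 0.58 and 0.64, the first just under the limit of 1.5-fold, which it passed with DESeq2 (0.61). It rose in the libraries labelled guide 1, a call lost without shScramble replicate 2 (0.58), and the guides differed by −0.06 (Benjamini-Hochberg adjusted p = 0.283 by edgeR's quasi-likelihood test). CDCA8, the borealin subunit, had log2 fold changes of 0.34 and 0.71 and rose in the libraries labelled guide 1.

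None of the 3 CENP genes rose or fell in either comparison by edgeR or by DESeq2. At an unadjusted p under 0.05, 1 was higher and 1 lower with guide 2, and 2 were higher and 1 lower with guide 1. Among all genes tested, 31.7% were higher and 33.8% lower with guide 2, and 36.2% and 34.4% with guide 1. CENPF, a large protein of the outer kinetochore that links it to dynein regulators, was the only one of the 40 genes with an adjusted p under 0.05 and a lower level with guide 2. It was at 179, 161 and 169 CPM with shScramble, 138, 140 and 133 CPM with guide 2, and 217, 243 and 237 CPM in the libraries labelled guide 1. The control libraries thus lay between those of the guides without overlap, at log2 fold changes of −0.31 (SE 0.0499) and 0.45 (SE 0.0491), both short of 1.5-fold. CENPA, the histone H3 variant of centromeric nucleosomes, had log2 fold changes of 0.03 and −0.22, and the sign of the first turned with other settings. The kinesin CENPE, which moves chromosomes towards the spindle equator, had 0.19 and 0.28. CENPA shares 6.96% of its exon bases with SLC35F6 on the same strand.

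Within the NDC80 complex, the microtubule-binding arm of the kinetochore, 1 of 4 genes rose with guide 2 and 3 of 4 in the libraries labelled guide 1. The shares of 25% and 75% stand beside 8.85% and 21.2% of all genes tested. SPC24, part of the dimer that anchors the complex to the inner kinetochore, was at 18.8, 18.1 and 18.4 CPM with shScramble, 34.6, 35.8 and 32.6 CPM with guide 2, and 35.3, 30.1 and 28.7 CPM in the libraries labelled guide 1. It rose by 0.90 (SE 0.0752) and 0.76 (SE 0.0745) on the log2 scale. Its partner SPC25 was at 10.0, 9.86 and 10.95 CPM with shScramble, 14.4, 15.6 and 13.1 CPM with guide 2, and 26.7, 19.4 and 21.4 CPM in the libraries labelled guide 1. SPC25 rose in the libraries labelled guide 1 (1.14, SE 0.103) and, at a log2 fold change of 0.49 (SE 0.109), did not pass 1.5-fold with guide 2. Its libraries labelled guide 1 spread widely, at 22.5 ± 3.78 CPM (SD, n = 3). NUF2 and NDC80 form the other dimer, which holds the microtubule. Their log2 fold changes were 0.24 and 0.09 with guide 2 and 0.60 and 0.50 with guide 1, and only NUF2 passed the call, in the libraries labelled guide 1. That call was lost without shScramble replicate 2 (0.55), guide 1 replicate 1 (0.57) or guide 1 replicate 3 (0.58).

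Of the 5 genes for kinesins and other spindle microtubule proteins, 0 rose with guide 2 and 3 rose in the libraries labelled guide 1, by edgeR and by DESeq2. By edgeR 8.85% of all genes tested rose with guide 2, and with guide 1 21.2% rose, against 60% of these 5. At an unadjusted p under 0.05, 4 of the 5 were higher with guide 2, against 31.7% of all genes tested. KIF11, the kinesin-5 motor that pushes spindle poles apart, was at 48.6, 44.9 and 48.0 CPM with shScramble, 56.2, 63.6 and 59.8 CPM with guide 2, and 96.3, 102 and 107 CPM in the libraries labelled guide 1. Its log2 fold changes were 0.35 (SE 0.0564) and 1.11 (SE 0.0547), so that the guide 1 libraries stood clear of both other groups. NUSAP1, a microtubule-bundling protein of the spindle, was at 91.8, 87.8 and 94.7 CPM with shScramble, 114, 124 and 118 CPM with guide 2, and 162, 152 and 164 CPM in the libraries labelled guide 1. The order of the groups was the same as for KIF11, with log2 fold changes of 0.38 and 0.80. KIF4A, a chromosome-bound kinesin, rose in the libraries labelled guide 1 (0.73) and had a log2 fold change of 0.29 with guide 2. KIF2C, the microtubule-depolymerising kinesin MCAK, had −0.04 and 0.34, and HMMR, a spindle-associated hyaluronan receptor, had 0.31 and 0.04. KIF4B, a near-identical copy of KIF4A, had at most 11 counts in a library.

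Of the 6 genes of condensin I and topoisomerase II, 1 rose with guide 2 and 5 in the libraries labelled guide 1. As shares these were 16.7% and 83.3%, where 8.85% and 21.2% of all genes tested rose. NCAPH, the kleisin that closes the condensin I ring, was at 26.3, 24.5 and 26.1 CPM with shScramble, 53.1, 54.9 and 57.8 CPM with guide 2, and 52.1, 53.3 and 54.2 CPM in the libraries labelled guide 1. It was 2.16-fold higher with guide 2 (log2 fold change 1.11, SE 0.0578, Benjamini-Hochberg adjusted p = 3.38e-15 by edgeR's quasi-likelihood test), the largest change of the 40 genes there, and 2.08-fold higher in the libraries labelled guide 1. NCAPG, the HEAT-repeat subunit that binds NCAPH and DNA, was at 38.1, 35.7 and 38.2 CPM with shScramble, 40.4, 43.3 and 37.6 CPM with guide 2, and 105, 107 and 103 CPM in the libraries labelled guide 1. Its guide 2 libraries overlapped the controls (log2 fold change 0.12, SE 0.0575), whereas the libraries labelled guide 1 were 2.81-fold above them (1.49, SE 0.0543). LCORL, on the opposite strand, covers 33.1% of the exon bases of NCAPG and had 275 to 363, 209 to 239 and 543 to 629 counts in the 3 groups, and reads of the overlap cannot be told apart without a stated strand setting. TOP2A, the topoisomerase II of proliferating cells, was looked at after its values were seen. It stood at 201, 185 and 212 CPM with shScramble, 213, 221 and 202 CPM with guide 2, and 422, 388 and 398 CPM in the libraries labelled guide 1. Like NCAPG, TOP2A overlapped the controls with guide 2 (0.09) and rose in the libraries labelled guide 1 (1.01), and the signs of both with guide 2 turned with library size alone as the scaling. The condensin ATPases SMC2 and SMC4 had log2 fold changes of 0.53 and 0.29 with guide 2 and rose by 1.02 and 0.67 in the libraries labelled guide 1. NCAPD2, the other HEAT-repeat subunit, passed the call in neither (0.47 and 0.38).

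Of the genes that trigger anaphase, CDC20 rose with guide 2 and ESPL1 in the libraries labelled guide 1. In each comparison 25% of these rose, against 8.85% of all genes tested with guide 2 and a similar 21.2% with guide 1. CDC20, the activator of the anaphase-promoting complex that the checkpoint inhibits, was at 109, 95.5 and 99.0 CPM with shScramble, 149, 158 and 166 CPM with guide 2, and 114, 120 and 120 CPM in the libraries labelled guide 1. Both shRNA groups lay above the controls, by 0.64 (SE 0.0522) and 0.22 (SE 0.0522) on the log2 scale, and the call with guide 2 was lost with library size alone (0.48). ESPL1, the separase that cuts cohesin, had log2 fold changes of 0.21 and 0.85. PTTG1, the securin that restrains separase, was looked at after its values were seen. Its level was 56.3, 53.9 and 58.6 CPM with shScramble, 78.6, 84.4 and 80.0 CPM with guide 2, and 51.6, 47.9 and 49.9 CPM in the libraries labelled guide 1. As with CENPF but in the other order, the controls lay between the groups, at log2 fold changes of 0.53 (SE 0.0517) and −0.17 (SE 0.0525), neither of which reached 1.5-fold. UBE2C, the ubiquitin-conjugating enzyme of the anaphase-promoting complex, had 0.55 and 0.53, and PTTG2 and PTTG3P, copies of PTTG1, had 2 counts at most in a library.

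Of the 6 genes of central spindle and cytokinesis, 2 rose in each comparison (33.3%), where 8.85% of all genes tested rose with guide 2 and 21.2% with guide 1. ECT2, the exchange factor that activates RhoA at the cleavage furrow, was at 95.4, 82.5 and 90.1 CPM with shScramble, 146, 155 and 150 CPM with guide 2, and 82.5, 81.9 and 84.9 CPM in the libraries labelled guide 1. It rose with guide 2 (log2 fold change 0.75, SE 0.0504), and the libraries labelled guide 1 overlapped the controls (−0.10, SE 0.0509). KIF20A, the kinesin MKLP2 that carries the passenger complex to the central spindle, was also looked at after its values were seen. It was at 68.4, 59.6 and 58.7 CPM with shScramble, 89.7, 101 and 98.5 CPM with guide 2, and 47.7, 58.7 and 53.9 CPM in the libraries labelled guide 1. KIF20A rose with guide 2 (0.63, SE 0.0715), while the libraries labelled guide 1 were at −0.22 (SE 0.0728) and touched the lowest control. Its call with guide 2 was lost with library size alone (0.48) and with a mean of at least 1 CPM (0.58). KIF23, the MKLP1 kinesin of centralspindlin, had log2 fold changes of 0.16 and 0.89, and PRC1, which bundles antiparallel microtubules, of 0.49 and 0.61, so that both rose in the libraries labelled guide 1 and not with guide 2, PRC1 not without shScramble replicate 2 (0.58). The guides differed by −0.12 on the log2 scale for PRC1, which did not reach 1.5-fold. RACGAP1, the partner of KIF23 in centralspindlin, had 0.19 and 0.20, and ANLN, which links the contractile ring to the membrane, had 0.34 and 0.15.

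The direct comparison of the guides tested whether these differences exceeded the spread between libraries. Of the 40 genes, 3 were higher (7.50%) and 10 lower (25%) in the guide 2 than in the guide 1 libraries, where 19.1% of all genes tested were higher and 28.2% lower. With the adjusted p alone 10 were higher and 21 lower, against 34.7% and 39.9% of all genes. The libraries of the guides did not overlap for 11 genes higher and 21 lower with guide 2, against 35.4% and 40.4% of all genes. The median log2 difference of the 40 genes was −0.17, against −0.06 over all genes tested, and with library size alone as the scaling it was −0.31, against −0.20 over all genes. ECT2, KIF20A and PTTG1 were higher with guide 2, by 0.85, 0.85 and 0.70 on the log2 scale. Lower with guide 2 were NCAPG (−1.37), AURKB (−1.12), TOP2A (−0.93), KIF11 (−0.77), CENPF (−0.76), KIF23 (−0.73), TPX2 (−0.66), TTK (−0.66), SPC25 (−0.64) and ESPL1 (−0.63). The difference was largest for NCAPG (SE 0.0547, Benjamini-Hochberg adjusted p = 1.09e-18 by edgeR's quasi-likelihood test). Among genes that rose in both comparisons, NCAPH differed between the guides by 0.05 (95% interval −0.06 to 0.17), MAD2L1 by −0.06 (−0.19 to 0.07) and SPC24 by 0.13 (−0.02 to 0.28), so that differences of 1.5-fold lay outside these intervals. PTTG1 no longer reached 1.5-fold with library size alone as the scaling (0.56), and SPC25 did not without guide 1 replicate 1 (−0.50) or guide 2 replicate 3 (−0.57), nor ESPL1 without guide 2 replicate 1 (−0.57).

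**Figure D3:**
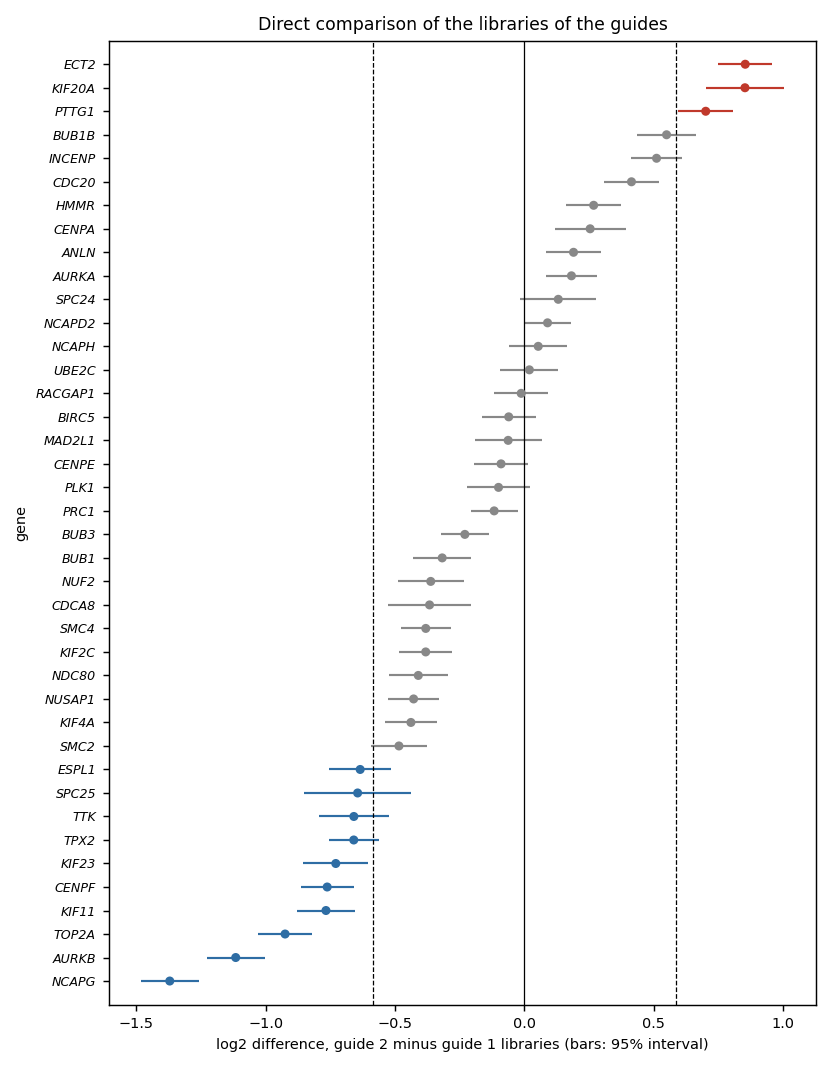
Log2 difference of each gene between the guide 2 and the guide 1 libraries (horizontal axis, guide 2 minus guide 1) in order of size; bars are 95% intervals, red and blue points passed the call and dashed lines mark 1.5-fold. The order runs from NCAPG at −1.37 to ECT2 and KIF20A at 0.85.

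Levels were compared between genes as CPM per kilobase of exon, with the exon length of the deposited annotation. That length can differ from the length of the transcripts present, so orders and ratios between genes depend in part on it. With shScramble the 40 genes ran from 4.95 ± 0.220 (SD, n = 3) for TTK to 49.7 ± 3.53 for CDC20 on this scale, and CDC20 was also the highest with guide 2, at 77.2 ± 4.19. In the libraries labelled guide 1 TOP2A was the highest, at 62.5 ± 2.72, within its spread of UBE2C at 60.5 ± 2.45. Subunits of condensin I, which assemble in equal numbers, were at unequal RNA levels. The ratio of the highest to the lowest of its 5 subunits within a library, which no library scaling changes, was 3.49 ± 0.158 with shScramble, 4.47 ± 0.314 with guide 2 and 2.12 ± 0.0649 in the libraries labelled guide 1. NCAPD2 was the highest subunit in all 9 libraries, while the lowest was NCAPG with shScramble and guide 2 and NCAPH in the libraries labelled guide 1. With shScramble NCAPG and NCAPH were within their spread, at 7.59 ± 0.296 and 7.82 ± 0.309. Opposite-strand genes share 33.1% of the exon bases of NCAPG (LCORL) and 7.49% of those of NCAPD2 (MRPL51). How overlapping reads were counted is not stated, and their part in these ratios was not tested. The same ratio in the NDC80 complex was 1.84 ± 0.0838, 1.62 ± 0.182 and 1.42 ± 0.150, and its spread with guide 2 reached into that of both other groups. For the chromosomal passenger complex it was 2.76 ± 0.187, 2.94 ± 0.257 and 3.17 ± 0.223, and the guide 2 libraries, at 2.69 to 3.20, overlapped those of both other groups. AURKB was its lowest subunit with shScramble and guide 2, and INCENP in the libraries labelled guide 1.

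**Figure D4:**
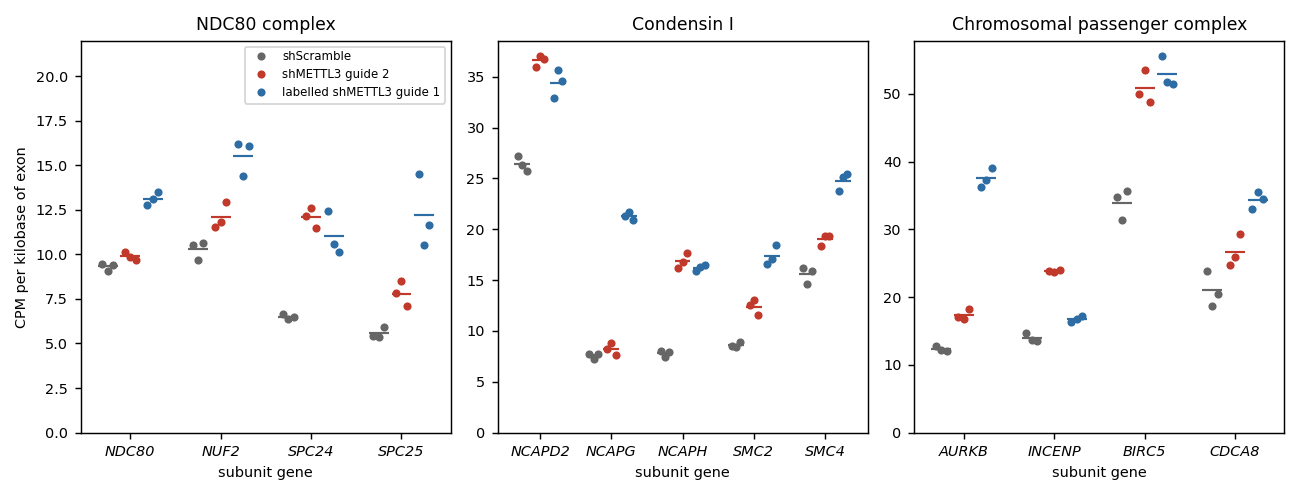
CPM per kilobase of exon (vertical axis, from 0) of the subunit genes of the NDC80 complex, condensin I and the chromosomal passenger complex in the shScramble (grey), guide 2 (red) and guide 1 (blue) libraries; points are libraries and lines are means of 3. NCAPH was alike in both shRNA groups, whereas NCAPG and AURKB stood high in the libraries labelled guide 1 and INCENP with guide 2.

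Genes that work beside the 40 were taken as further lists, whose shares stand beside the 8.85% of all genes tested that rose with guide 2 and the 21.2% that rose with guide 1. Of 29 other kinetochore subunits, 10 rose with guide 2 (34.5%) and 13 in the libraries labelled guide 1 (44.8%), with CENPQ of the inner kinetochore at the top with guide 2 (log2 fold change 1.02) and MIS12 of the outer kinetochore at the bottom (−0.42). Of 16 condensin II, cohesin and cohesin regulator genes, 3 and 5 rose (18.8% and 31.2%), and 1, the cohesin regulator PDS5B, fell in the libraries labelled guide 1 (6.25%, against 16.5% of all genes). The cohesin acetyltransferase ESCO2 was the highest of them with guide 2 (1.19) and the cohesin subunit STAG2 the lowest (−0.28). Of 17 subunits and partners of the anaphase-promoting complex, 0 rose with guide 2, also by DESeq2, and 3 with guide 1 (17.6%), a share below that of all genes. At an unadjusted p under 0.05, 8 of the 17 were higher and 2 lower with guide 2, against 31.7% and 33.8% of all genes, with ANAPC15 at 0.54 and ANAPC16 at −0.27 as the extremes with guide 2. The median of this list was 0.13 with guide 2 and 0.20 with guide 1. Of 8 other mitotic kinesins, 1 and 3 rose (12.5%, near the share of all genes, and 37.5%), with KIFC1 at 0.95 and KIF18A at −0.20 with guide 2. Of 23 spindle pole, centrosome and augmin genes, 2 rose with guide 2 (8.70%, the share of all genes being 8.85%) and 10 with guide 1 (43.5%). The augmin subunit HAUS7 was the 1 gene of that list that fell with guide 2 (log2 fold change −0.84), where 20.4% of all genes fell. HAUS7 was a low gene, at 1.10 to 2.10 CPM in the shScramble libraries. TUBG1, which encodes the γ-tubulin that nucleates spindle microtubules, had the largest rise of that list with guide 2 (1.23).

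Of 21 genes of mitotic entry and G2/M transcription, 7 rose with guide 2 (33.3%) and 10 in the libraries labelled guide 1 (47.6%). MYBL2, the B-MYB factor that turns on late cell cycle genes with MuvB, was the highest with guide 2 (log2 fold change 1.13) and rose by 1.66 with guide 1, and LIN37, a MuvB subunit, was the lowest with guide 2 (−0.58). The forkhead factor FOXM1, which acts on the same promoters, rose with guide 2 (1.08) and had 0.32 with guide 1. CDK1, the kinase that drives entry into mitosis, likewise rose with guide 2 (1.09) and had 0.40 with guide 1, whereas its partner cyclin B1 (CCNB1) had 0.39 and −0.21. Of 20 G1/S genes, 18 and 17 rose (90% and 85%), with medians of 1.05 and 1.68, with the ribonucleotide reductase subunit RRM2 the highest with guide 2 (1.65) and cyclin E1 (CCNE1) the lowest (0.38). The G1/S list thus had a higher share of genes that rose, and a higher median, than the 40 mitotic genes in both comparisons.

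**Figure D5:**
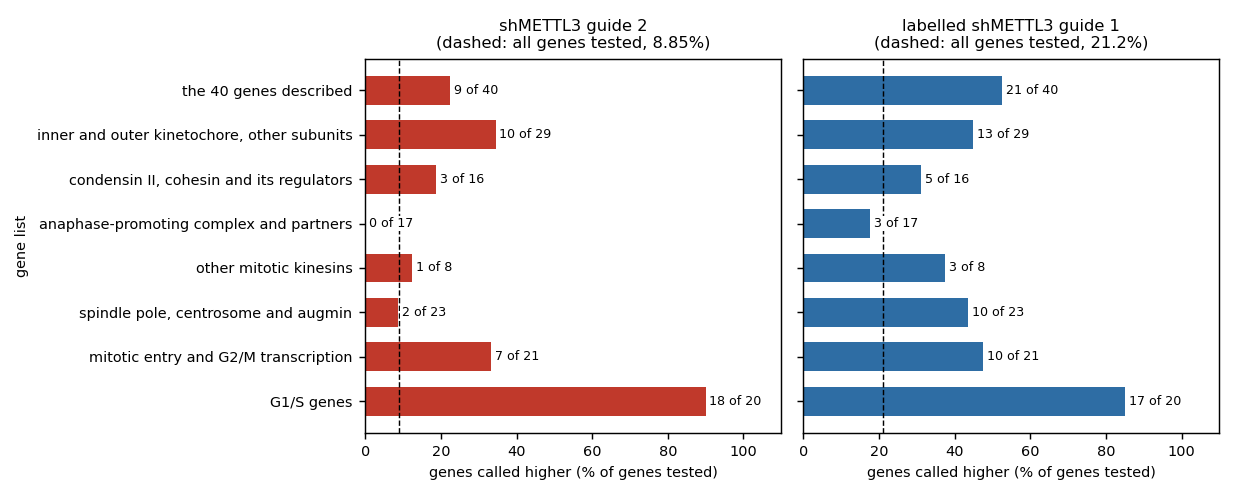
Share of the genes tested in each list that rose (horizontal axis, percent) with guide 2 (left) and in the libraries labelled guide 1 (right); numbers give genes that rose of genes tested and the dashed line is the share over all 19278 genes tested. The bar of the 40 genes stood at 22.5% and 52.5%, and that of the G1/S genes at 90% and 85%.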

How the data were processed

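RNA was sequenced from 9 libraries, grouped by their labels into 3 groups of 3. The authors trimmed reads with Trim Galore, discarded low-quality reads, aligned them to Ensembl-annotated GRCh38 with STAR and counted them with featureCounts; tool versions, the strand setting and the treatment of multi-mapping reads are not given in the sources used here. The deposited values are raw counts per gene and library, with exon coordinates, without normalization or pooling. How reads of overlapping genes were assigned is not stated either. The RNA kit in the labels differs from that in the paper. Symbols were given to 56558 of 60675 identifiers (93.2%).

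From the counts, libraries were scaled with TMM factors and genes filtered with filterByExpr (minimum count 10, minimum total 15) in edgeR 4.0.16 (R 4.3.3), which left 19278 genes. The quasi-likelihood F test with robust estimation was fitted to all 9 libraries without covariates, and p-values were adjusted over all genes tested (Benjamini-Hochberg). A call needed an adjusted p under 0.05 and a 1.5-fold change. The comparisons were guide 2 and guide 1, each against shScramble, and guide 2 against guide 1. CPM per kilobase used the exon length of the deposited annotation.

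The 40 genes, the further lists and the tests were chosen with earlier results of these data known. Values in every library are given for the 6 genes with the largest change with guide 2, the 6 with the largest change with guide 1, any gene called in opposite directions with the guides, the largest difference between guides and the gene of each role with the largest change with guide 2. From the further lists the highest and lowest with guide 2 are named, with CDK1, CCNB1, FOXM1 and MYBL2. Promoters are printed for up to 4 genes with TTTGAA near the start. The procedure was run on simulated counts with 1.8-fold and 2-fold changes in the guide 2 libraries. Of 100 changed genes at each size, edgeR called 100 and 100, and DESeq2 98 and 97. In the same simulated comparison edgeR also called 4 unchanged genes and DESeq2 called 0. Changes near 1.5-fold were not simulated, so this run does not cover calls close to that limit. Simulated rises and falls were equal in number, whereas 1706 genes rose and 3939 fell with guide 2. The run therefore does not cover the choice of scaling. Alternatives were DESeq2 1.42.0, scaling by its size factors or by library size alone, removing the filter, a filter at a mean of 1 CPM, only the 6 libraries compared, a replicate block, leaving out each library and the adjusted p alone.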

Additional observations from a re-analysis of the deposited data

Results flagged for a closer look

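Of the 40 genes, 3 had adjusted p-values under 0.05 in opposite directions with the guides and also passed the call in the direct comparison of the guides by edgeR's quasi-likelihood test. How many of all genes tested met these conditions was not counted, so the number is not a trait of the 40 genes. In the direct comparison 19.1% of all genes tested were called higher and 28.2% lower with guide 2. CENPF differed by −0.76 on the log2 scale, guide 2 minus guide 1, with lower values than shScramble in 3 of 3 guide 2 libraries and higher values in 3 of 3 guide 1 libraries. PTTG1 differed by 0.70, with 3 of 3 guide 2 libraries above and 3 of 3 guide 1 libraries below the controls. KIF20A differed by 0.85, with 3 of 3 guide 2 libraries above the controls and the libraries labelled guide 1 overlapping the lowest control. Groups of 3 libraries were not searched for single libraries that stand apart.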

How the results depend on the processing

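The counts of mitotic genes that rose or fell moved beyond 1.5 times only with the adjusted p alone, which gave 34 higher and 1 lower with guide 2, 35 and 3 with guide 1, and 10 and 21 between the guides. DESeq2 gave 10 and 21 genes higher with guides 2 and 1. Library size alone moved the median of all genes tested with guide 2 from −0.04 to −0.19 and the share of higher among all calls from 30.2% to 17.2%, and left 6, 20 and 2 of the 40 genes higher in the 3 comparisons and 11 lower between the guides. With it the median of the 40 genes was 0.19 with guide 2 and −0.31 between the guides, and a mean of at least 1 CPM gave −0.22 between the guides.

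The sign turned only for genes that had not passed the call. With library size alone this held with guide 2 for CENPA (−0.12), NDC80 (−0.0650), NCAPG (−0.0322) and TOP2A (−0.0630), and between the guides for SPC24 (−0.00566), NCAPD2 (−0.0477), NCAPH (−0.0835) and UBE2C (−0.12). A mean of at least 1 CPM turned CENPA (−0.0135) with guide 2 and UBE2C (−0.0239) between the guides, and no filter turned RACGAP1 (0.00856) between the guides. Over the libraries left out, values ranged from −0.00112 (without shScramble replicate 2) to 0.0844 for CENPA with guide 2 and from −0.0250 (without shScramble replicate 2) to 0.0690 for HMMR with guide 1. Between the guides they ranged from −0.0315 to 0.0190 for RACGAP1 and from −0.0367 to 0.0690 for UBE2C. The cause was not tested.

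With a library left out, 8 to 11 genes were higher with guide 2, 17 to 21 with guide 1, and 3 to 4 higher and 9 to 10 lower between the guides, with medians of 0.31 to 0.38, 0.55 to 0.62 and −0.19 to −0.16. The 17 came from leaving out shScramble replicate 2.

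No pairing by replicate number was detected: deviations from the group means correlated between −0.0981 and 0.0529 for same-numbered libraries of different groups, and not every library correlated best with its own number. Whether same-numbered libraries were prepared together cannot be read from these correlations. A replicate block gave 9 higher with guide 2, 21 with guide 1, and 3 higher and 10 lower between the guides, the counts obtained without it, and medians of 0.34, 0.59 and −0.17.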
